A study of Mus musculus with 4 samples.

Results

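The genes described here are the constant genes of the antibody light chains, Igkc for kappa and Iglc1, Iglc2 and Iglc3 for lambda. They were chosen by gene symbol and make up 4 of the 32287 features in the count tables, each matching 1 feature. Together they held 379953 unique molecular identifiers (UMIs, tags that mark single captured RNA molecules) on 4 capture areas. The data are spatial transcriptomics (Visium, in which a tissue section lies on a grid of barcoded spots, each covering several cells) of popliteal lymph nodes (PLNs), the nodes that drain the hind limb, from male C57BL/6 mice. The WT area held sections of 10 PLNs from 5 wild-type mice aged 5.5 months. The Early area held 6 PLNs from 3 TNF-Tg mice of the same age, labelled as having early arthritis. The 2 Advanced areas, Advanced 1 and Advanced 2, each held 6 PLNs from 3 TNF-Tg mice aged 8.5 to 9 months with advanced arthritis. TNF-Tg mice here are of a line that carries a single copy of a human TNF transgene and develops inflammatory arthritis. All mice received Evans blue dye into the hind paw before the nodes were taken. The nodes of an area share 1 library, the WT and Early groups have 1 area each, and the age and the stage of the Advanced mice cannot be told apart.

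Every antibody pairs heavy chains with light chains, and a B cell normally makes light chains of 1 type only, kappa or lambda. In mice most B cells use kappa. In the mouse lambda locus the variable gene Iglv1 is joined to the constant gene Iglc1 or Iglc3, while Iglv2 and Iglv3 are mostly joined to Iglc2. Naive and follicular B cells carry moderate amounts of light chain RNA for their surface receptor, whereas plasma cells, which secrete antibody and gather in the medullary cords of a node, fill their cytoplasm with it. In a section that mixes both, more plasma cells and more light chain RNA per cell cannot be told apart, and the same holds for fewer cells and less RNA per cell.

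In the mm10 (GRCm38) annotation Igkc (ENSMUSG00000076609) is 1 exon of 532 bases on the plus strand, at chr6:70726435-70726966. The lambda genes lie on the minus strand of chromosome 16, with Iglc1 (ENSMUSG00000105906) at chr16:19061618-19062071, Iglc3 (ENSMUSG00000105547) at chr16:19065230-19065681 and the constant exon of Iglc2 (ENSMUSG00000076937) at chr16:19198396-19198853. The library captures the 3′ ends of messages, so the last 120 coding bases of each gene are shown, because they show how far the 4 genes can be told apart where reads start. Capitals in Iglc3 and Iglc1 mark bases that differ from Iglc2, and capitals in Iglc2 mark bases that differ from Iglc3. Igkc has none, since it differs too widely for a base-by-base comparison to help.
Iglc2, chr16:19198539-19198658, minus strand: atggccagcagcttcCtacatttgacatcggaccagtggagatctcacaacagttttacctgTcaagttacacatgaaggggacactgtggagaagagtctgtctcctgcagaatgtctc
Iglc3, chr16:19065368-19065487, minus strand: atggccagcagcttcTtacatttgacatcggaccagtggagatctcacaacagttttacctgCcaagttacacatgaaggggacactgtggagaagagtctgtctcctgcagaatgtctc
Iglc1, chr16:19061755-19061874, minus strand: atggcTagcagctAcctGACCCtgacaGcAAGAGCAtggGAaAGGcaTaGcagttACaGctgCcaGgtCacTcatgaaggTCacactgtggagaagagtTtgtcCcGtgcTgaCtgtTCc
Igkc, chr6:70726635-70726754, plus strand: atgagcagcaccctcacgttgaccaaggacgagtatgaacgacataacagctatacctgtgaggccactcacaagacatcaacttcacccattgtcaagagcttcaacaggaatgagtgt

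Iglc2 and Iglc3 differed at 2 of these 120 bases, and over the whole constant exon their coding sequences were the same at 303 of 314 aligned bases (96.5%). Their longest identical stretch was 79 bases. Iglc1 was the same as Iglc2 at 74.8% of aligned coding bases and as Iglc3 at 75.4%, and Igkc matched the lambda genes at 53.2 to 56.5%. The transcript read was 90 bases long, and none of the 369 windows of 90 bases in the Iglc2 exon occurred in the Iglc3 exon, or the reverse. A full read within the exon therefore differs between the pair, though often by few bases, so the split of their counts is less sure than that of Iglc1 and Igkc, which are set well apart by sequence.

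The areas differed in depth. WT had 833 spots under tissue with 1808678 UMIs, Early 1489 spots with 5180493 UMIs, Advanced 1 2015 spots with 3378219 UMIs and Advanced 2 1782 spots with 3198238 UMIs. The median spot held 282, 414, 287 and 398.5 UMIs in that order. A spot was placed at the rim if fewer than 6 of its 6 grid neighbours lay under tissue and otherwise in the interior. The rim is thus the edge of the tissue-covered spots, not of each node. Of the WT spots 828 of 833, and of the Advanced 1 spots 2013 of 2015, formed 1 connected piece, so that edges of nodes that touch count as interior. Rim spots were far deeper than interior spots in every area. The median rim spot held 3166 UMIs in WT against 140.5 in the interior, 5541 against 156 in Early, 2113 against 222 in Advanced 1 and 3263 against 250.5 in Advanced 2. The rim therefore supplied 79.3%, 75.7%, 47.9% and 64.5% of the UMIs of the 4 areas, so that the value of a whole area is weighted to its rim in WT, Early and Advanced 2 and more evenly in Advanced 1. Spot barcodes mark grid positions and are common to all areas by design, so that pairs of areas shared between 464 and 1050 of them. Levels are given as UMIs per 10000 UMIs of the same area or region. Each captured molecule counts once whatever the length of its gene, so gene length does not enter when levels of different genes are set side by side. Differences between genes in capture or in the assignment of reads were not tested.

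Igkc was by far the most abundant of the 4 genes, and its level was highest in WT and lowest in Early. Over all spots Igkc stood at 368 UMIs per 10000 in WT, 176 in Early, 265 in Advanced 1 and 292 in Advanced 2. The Advanced areas averaged 279 ± 18.9 (SD, n = 2), and WT and Early lay on either side of both of them. Together the 4 light chain genes took 3.87%, 2.09%, 2.91% and 3.24% of all UMIs in WT, Early, Advanced 1 and Advanced 2.

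The lambda genes did not share the order of Igkc. Iglc2 stood at 7.75 UMIs per 10000 in WT, 13.7 in Early, 11.1 in Advanced 1 and 13.3 in Advanced 2. WT was the lowest area for Iglc2, and Early and Advanced 2 were closer to each other than the 2 Advanced areas were. Iglc3 stood at 5.35 in WT, 11.2 in Early, 8.72 in Advanced 1 and 7.35 in Advanced 2, so that WT was again lowest and Early highest, outside the range of the Advanced areas. Iglc1 stood at 6.15 in WT, 7.69 in Early, 5.34 in Advanced 1 and 11.3 in Advanced 2. Both WT and Early fell between the 2 Advanced areas, which differed 2.12-fold, so the order of the groups for Iglc1 does not exceed the spread between areas of 1 group. The sum of the 3 lambda genes was 19.3 in WT, 32.6 in Early, 25.2 in Advanced 1 and 31.9 in Advanced 2.

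**Figure D1:**
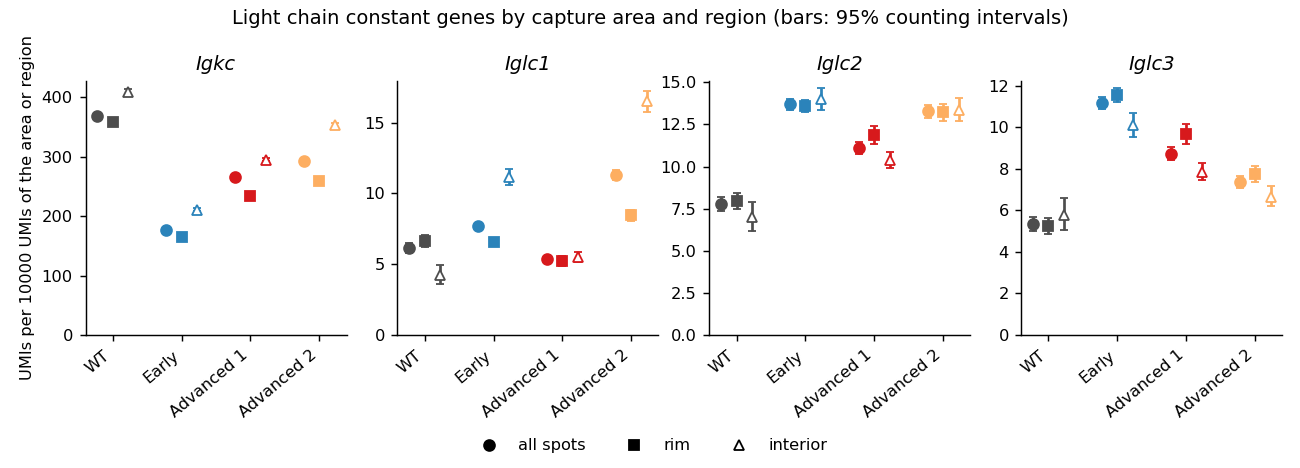
Level of each light chain constant gene in UMIs per 10000 UMIs of the area or region (1 panel per gene, each with its own scale), for all spots, the rim and the interior of the 4 capture areas; bars are 95% exact counting intervals. With the outermost ring of spots as the rim, Igkc is highest in WT and lowest in Early in all 3 regions. Iglc2 is lowest in WT, and the interior value of Iglc1 separates the 2 Advanced areas (5.48 and 16.5).

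The first comparison asked whether light chain RNA differs between advanced and early arthritis. Igkc was higher in Advanced than in Early over all spots, by 0.59 ± 0.08 on the log2 scale (SE; adjusted p = 9.98e-10, edgeR quasi-likelihood test), and Iglc3 was lower, by 0.56 ± 0.15 (log2 fold change -0.56, adjusted p = 0.0198). Iglc2 (log2 fold change -0.25, adjusted p = 0.75) and Iglc1 (0.04, adjusted p = 0.99) did not pass the threshold of 0.05. Of all genes tested 1.16% were called, and 2 of the 4 light chain genes. The spread behind these tests comes from the 2 Advanced areas alone, with WT and Early assumed to vary like them. edgeR shares that spread across genes, so a gene's own difference between the Advanced areas counts little. The SE was 0.15 for Iglc1, 0.14 for Iglc2 and 0.15 for Iglc3, while the Advanced areas differed 2.12-fold, 1.20-fold and 1.19-fold. With DESeq2 the SE of Iglc1 was 0.88. DESeq2 called neither Igkc nor Iglc3 (for Igkc a log2 fold change of 0.59 ± 0.23, adjusted p = 1.0), and Iglc3 was also lost without TMM factors (adjusted p = 0.161).

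Against WT, which had the same sex and strain but younger mice without the transgene, Advanced areas were lower in Igkc and higher in Iglc2. The log2 fold change of Igkc was -0.51 ± 0.08 (adjusted p = 2.25e-08) and that of Iglc2 was 0.54 ± 0.15 (adjusted p = 0.0162), both by edgeR over all spots. Iglc3 (0.47, adjusted p = 0.0912) and Iglc1 (0.33, adjusted p = 0.404) pointed the same way as Iglc2 without passing. In this comparison 2.08% of all genes tested were called, and 2 of the 4 light chain genes, neither of them with DESeq2. The difference between Early and WT, with 1 area each, was not tested. The level of Igkc was 2.09-fold higher in WT than in Early, and the levels of Iglc2 and Iglc3 were 1.77-fold and 2.09-fold higher in Early than in WT.

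The groups were then compared within each region, since the rim weighs so heavily in the sums. At the rim Igkc stood at 358 UMIs per 10000 in WT, 165 in Early, 234 in Advanced 1 and 259 in Advanced 2, the same order as over all spots. Igkc was lower in Advanced than in WT at the rim (log2 fold change -0.63 ± 0.09, adjusted p = 0.00256; adjusted p = 0.238 with DESeq2), as 1 light chain gene of 4 called against 1.04% of all genes. Advanced against Early at the rim gave a log2 fold change of 0.52 ± 0.10 for Igkc (adjusted p = 0.067), with 0 of 4 called against 0.149% of all genes. With DESeq2 the adjusted p of Igkc was 1.0. Igkc passed in this comparison under the 5 other settings run over all areas, with adjusted p from 3.54e-08 (a second ring of spots taken into the rim) to 0.0375 (no TMM factors).

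In the interior Igkc stood at 408 in WT, 211 in Early, 294 in Advanced 1 and 353 in Advanced 2. None of the 4 genes was called between Advanced and Early there, where 0.316% of all genes were. The log2 fold change of Igkc was 0.60 ± 0.38, but 0.08 with 2 rings of spots as the rim. In spots 4 or more rings from the edge Igkc stood at 405 in Early, 283 in Advanced 1 and 411 in Advanced 2. The place of Early as the lowest area in the interior thus depends on where the rim ends. Against WT the only call was Iglc1, with a log2 fold change of 1.29 ± 0.32 (adjusted p = 0.0219), beside 0.351% of all genes called. That call rested on 1 area. Interior Iglc1 stood at 4.25 UMIs per 10000 in WT, 11.2 in Early, 5.48 in Advanced 1 and 16.5 in Advanced 2. The log2 fold change was 0.32 without Advanced 2 and 1.93 without Advanced 1. The call was lost with DESeq2 (log2 fold change 1.29) and without TMM factors (1.37, adjusted p = 0.564, edgeR). It was also lost with spots of at least 500 UMIs (1.23, adjusted p = 0.0862, edgeR) and with 2 rings as the rim (2.04, adjusted p = 0.309, edgeR). The fold change itself was about as large or larger in these 4 settings.

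The next question was whether the light chain genes differ between the rim and the interior of the tissue. The level of Igkc at the rim was 0.877 of that in the interior in WT, 0.78 in Early, 0.794 in Advanced 1 and 0.733 in Advanced 2, lower at the rim in 4 of 4 areas. The edgeR test with area as a block gave a log2 fold change of -0.25 ± 0.09 (adjusted p = 0.1). Iglc2 differed little, with rim levels of 1.13, 0.973, 1.14 and 0.988 times the interior levels in the same order (log2 fold change 0.16 ± 0.10, adjusted p = 0.4). Iglc3 was higher at the rim in the 3 TNF-Tg areas, by 1.14, 1.23 and 1.16 times, and lower in WT, at 0.907 (log2 fold change 0.24 ± 0.11, adjusted p = 0.193). Iglc1 was the most variable, at 1.56 in WT, 0.589 in Early, 0.947 in Advanced 1 and 0.513 in Advanced 2 (log2 fold change -0.25 ± 0.17, adjusted p = 0.424). None of the 4 genes was called, whereas 7.62% of all genes tested were. Igkc passed without TMM factors (adjusted p = 0.0182), with no filter on low counts (adjusted p = 0.0443) and with spots of at least 500 UMIs (adjusted p = 0.0307), and Iglc1 (log2 fold change -0.53, adjusted p = 0.0039) and Iglc3 (0.32, adjusted p = 0.037) passed when WT was left out. A test of whether the rim effect itself differs between Advanced and Early called none of the 4 genes (adjusted p = 1.0 for each by edgeR, unadjusted p from 0.464 to 0.942) and 0.0408% of all genes.

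Dividing the kappa counts by the lambda counts of the same spots removes the total depth and the scaling from the comparison. The kappa to lambda ratio (Igkc over the sum of Iglc1, Iglc2 and Iglc3) was 19.1 in WT, 5.4 in Early, 10.6 in Advanced 1 and 9.15 in Advanced 2. The 95% exact intervals were 18.5 to 19.8, 5.31 to 5.49, 10.3 to 10.8 and 8.96 to 9.34, and they cover counting error only. The Advanced areas averaged 9.85 ± 0.994 (SD, n = 2), 1.82 times the Early value, and WT was 1.94 times the Advanced mean. As a share of light chain UMIs, lambda made up 4.97% in WT, 15.6% in Early, 8.66% in Advanced 1 and 9.85% in Advanced 2. The difference of WT from Advanced and that of Early from Advanced were both larger than the difference between the 2 Advanced areas, and the differences between groups were not tested.

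A few spots weighed on the WT value. Without the 10 spots of each area with most light chain UMIs the ratio was 14.3 in WT, 4.75 in Early and 8.76 ± 0.391 in Advanced (SD, n = 2), the same order with WT at 1.63 times Advanced. The order of the group means also held with each lambda gene in turn as the denominator. WT over Advanced was 2.07 with Iglc2 and 1.96 with Iglc3, and Advanced over Early was 1.79 and 2.23. With Iglc1 alone these were 1.58 and 1.65, but the ratio was 59.8 in WT, 22.9 in Early, 49.7 in Advanced 1 and 25.8 in Advanced 2, so that the Advanced areas differed by more than their mean did from WT or Early.

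At the rim the kappa to lambda ratio was 18.0 in WT, 5.19 in Early, 8.76 in Advanced 1 and 8.80 in Advanced 2. In the interior it was 23.9, 5.99, 12.4 and 9.66. The ratio was lower at the rim in 4 of 4 areas, by a mean log2 difference of -0.31 ± 0.17 (SD, n = 4; exact sign-flip permutation test, two-sided, p = 0.13, the smallest that 4 areas allow). The direction was shared by 4 of 4 areas with Iglc2 alone or Iglc3 alone as lambda, and by 2 of 4 with Iglc1 alone (mean log2 difference -0.04, exact permutation p = 1.0).

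**Figure D2:**
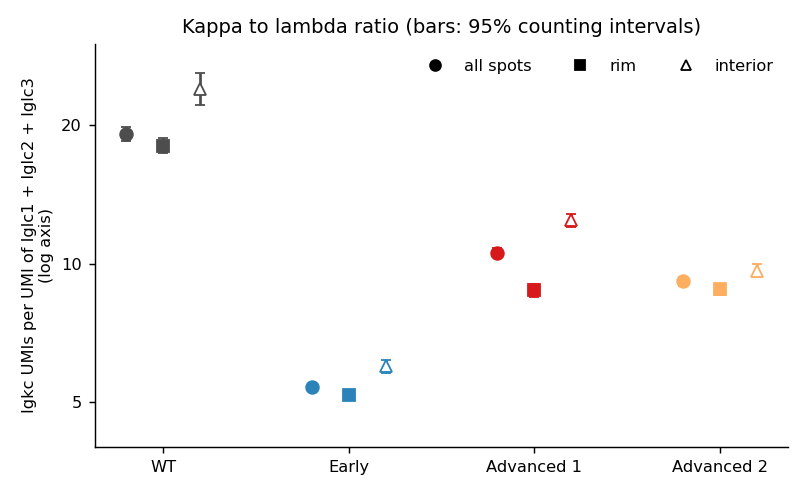
Kappa to lambda ratio (Igkc UMIs per UMI of Iglc1, Iglc2 and Iglc3 together, log axis) of the 4 capture areas for all spots, the rim and the interior; bars are 95% exact counting intervals. WT (19.1 over all spots) lies above both Advanced areas (10.6 and 9.15) and Early (5.4) in each region, and every rim value lies below the interior value of its area.

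By distance from the tissue edge, counted in rings of spots from 0 at the rim, the ratio went from 18.0 in ring 0 to 55.8 in ring 4 and deeper in WT, where Igkc reached 711 UMIs per 10000 and the summed lambda level was 12.7. The deepest WT ring was thin, with 58 spots and 12556 UMIs. Elsewhere the ratio did not go up ring by ring. It was 4.83 in ring 1 of Early against 5.19 at the rim, and 8.01 against 8.80 in the same rings of Advanced 2. In ring 2 of Advanced 1 it was 8.07 against 8.76 at the rim. In ring 4 and deeper it was 7.29 in Early, 13.5 in Advanced 1 and 11.8 in Advanced 2. In Early both chains were highest in the deepest spots, with Igkc at 405 and summed lambda at 55.6 against 165 and 31.7 at the rim, and Iglc1 at 26.4 against 6.58. In Advanced 2, likewise, Iglc1 was at 14.9 to 21.0 in rings 1 to 4 and deeper against 8.46 at the rim, whereas in Advanced 1 it stayed between 4.35 and 6.17 in all rings.

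The lambda genes also differed in their shares of the lambda pool. Iglc2 held the largest share in each area, with 40.2% of lambda UMIs in WT, 42.0% in Early, 44.1% in Advanced 1 and 41.6% in Advanced 2. Iglc1 held 32.0%, 23.6%, 21.2% and 35.4%, and Iglc3 27.8%, 34.3%, 34.7% and 23.0%. The 2 Advanced areas lay at the ends of the Iglc1 range, so the makeup of lambda varied as much within that group as between groups. In the interior of Advanced 2, Iglc1 made up 45.2% of lambda. The ratio of Iglc2 to Iglc3, the near-identical pair, was 1.45, 1.22, 1.27 and 1.80. Another lambda constant gene, Iglc4, gave 0, 6, 1 and 6 UMIs on the 4 areas.

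Light chain UMIs were concentrated in few spots. The 10% of spots with most light chain UMIs held 79.8% of them in WT, 66.9% in Early, 77.4% in Advanced 1 and 66.7% in Advanced 2, and the same spots held 54.7%, 49.3%, 57.9% and 47.8% of all UMIs. Of these top spots 77.1%, 75.8%, 39.6% and 57.9% lay at the rim. Over all spots as sequenced, Igkc was more concentrated (81.4%, 70.5%, 79.4% and 68.3% in its own top 10% of spots) than Iglc2 (69.0%, 58.0%, 69.0% and 61.4%) and Iglc3 (67.4%, 59.8%, 68.1% and 64.6%), and Iglc1 was closer to Igkc (83.1%, 70.7%, 77.3% and 72.5%). When spots with at least 500 UMIs were thinned to 500 each, the top 10% of spots held 35.7%, 37.3%, 34.2% and 34.5% of light chain UMIs, a similar degree of concentration in every area. At that depth the order of the genes was not the same. The top spots then held 37.5%, 40.2%, 36.6% and 35.9% of Igkc, against 47.0%, 39.3%, 41.9% and 38.3% of Iglc2 and 55.6%, 41.9%, 45.5% and 49.2% of Iglc3. Many thinned spots had no UMI of a lambda gene (232 of 356 in WT for Iglc2), and no order of concentration among the genes is read from them.

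At that equal depth, 72.8% of spots in WT had at least 1% light chain UMIs (95% exact interval 67.8 to 77.3, 356 spots), 76.4% in Early (73.1 to 79.5, 707 spots), 80% in Advanced 1 (77 to 82.7, 803 spots) and 86.9% in Advanced 2 (84.4 to 89.1, 815 spots). Thinning left out 477, 782, 1212 and 967 shallower spots, and unthinned the shares were 71.6%, 75.2%, 77.8% and 86.7%. Advanced 2 had the highest share, and the order of the others changed with the mark. At 2% light chain UMIs the shares were 46.3% in WT, 34.7% in Early, 41.7% in Advanced 1 and 55.2% in Advanced 2, with Early the lowest. Among the unthinned spots with at least 500 UMIs, Igkc had a median of 157 UMIs per 10000 in WT (lowest 0, highest 1556), 98.3 in Early (11.6 to 1864), 131 in Advanced 1 (15.0 to 1775) and 178 in Advanced 2 (0 to 1907). The median spot of WT therefore lay below that of Advanced 2, while the pooled WT level lay above it.

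Single spots stood out in the richest tail. The richest WT spot, at the rim, held 6486 Igkc UMIs beside 21 Iglc1, 27 Iglc2 and 18 Iglc3 UMIs and made up 9.35% of the light chain UMIs of its area. It also held 64 UMIs of Iglv1, of 216 in the area. The richest spots of Early, Advanced 1 and Advanced 2 held 3235, 4652 and 2036 Igkc UMIs.

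Spots differed widely in lambda share. Spots with at least 100 light chain UMIs numbered 131 in WT, 280 in Early, 204 in Advanced 1 and 268 in Advanced 2. Their median lambda share was 4.14%, 14.3%, 6.14% and 8.10%, and the highest single spot reached 69.9%, 51.1%, 55.3% and 32.4%. The highest WT spot held 49 Igkc, 70 Iglc1, 37 Iglc2 and 7 Iglc3 UMIs. More than 20% lambda was found in 9 of these spots in WT (6.87%, 95% exact interval 3.19 to 12.6), 112 in Early (40%, 34.2 to 46.0), 25 in Advanced 1 (12.3%) and 32 in Advanced 2 (11.9%). Most of these lambda-rich spots lay at the rim, 8 of 9, 98 of 112, 22 of 25 and 26 of 32, where the rim held 102 of 131, 198 of 280, 81 of 204 and 147 of 268 of the spots considered. Iglc2 was the leading lambda gene in 6, 67, 12 and 16 of them, Iglc3 in 1, 36, 10 and 7, and Iglc1 in 2, 9, 3 and 9. A spot with a low light chain level reaches 100 light chain UMIs only if it is deep, so among such spots the filter favours the deeper rim. Its effect on the counts and places of lambda-rich spots was not tested.

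**Figure D3:**
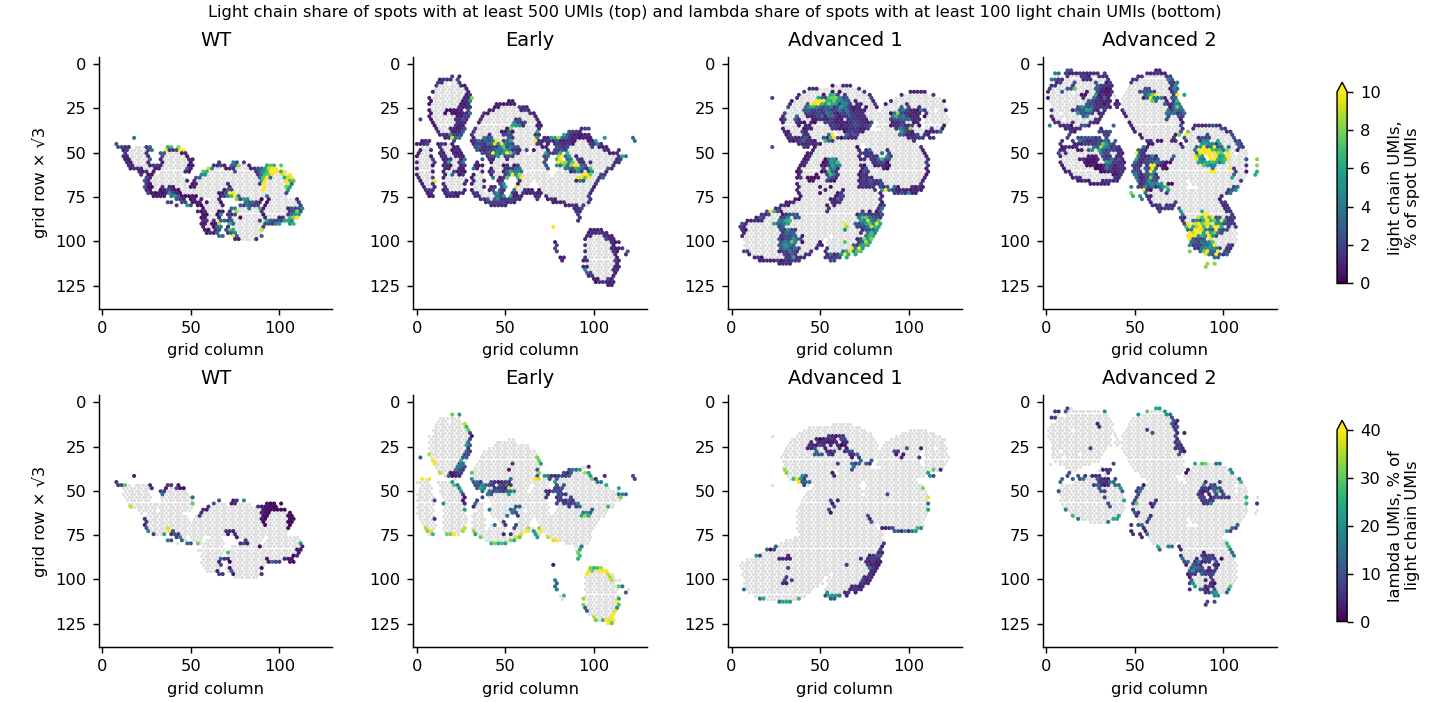
Maps of the 4 capture areas on the spot grid, with the light chain share of all UMIs for spots with at least 500 UMIs (top row) and the lambda share of light chain UMIs for spots with at least 100 light chain UMIs (bottom row). The Early area has the most spots with a lambda share over 20% (112 of 280), and WT the fewest (9 of 131).

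The Early area broke into 4 connected pieces of tissue of at least 50 spots, which are not labelled as nodes and may each hold more than 1. Lambda made up 14.5% of light chain UMIs in the piece of 924 spots, 13.4% in that of 313, 32.3% in that of 158 and 26.5% in that of 79. The pieces of 158 and 79 spots had the lowest Igkc levels, 76.4 and 100 UMIs per 10000 against 221 and 146 in the larger pieces, and summed lambda levels of 36.4 and 36.2 against 37.4 and 22.6. In Advanced 2 a piece of 1517 spots had 9.77% lambda and a piece of 249 spots 12.4%, with Igkc at 323 and 153.

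Igkc and the lambda genes were then set against the RNA of the heavy chain constant genes in the same spots. Spots with at least 500 UMIs were grouped by the share of their UMIs that came from the 8 heavy chain constant genes, in classes chosen after the data were seen. Igkc went up steeply with the heavy chain share in every area. Its level was 56.6, 68.6, 72.0 and 65.4 UMIs per 10000 in spots with under 1% heavy chain UMIs in WT, Early, Advanced 1 and Advanced 2, and 785, 798, 740 and 610 in spots with 5% or more. Iglc1 also stood higher in the richest class, by 2.72-fold in WT, 7.11-fold in Early, 1.63-fold in Advanced 1 and 7.91-fold in Advanced 2. Iglc2 and Iglc3 followed less or not at all, with ratios between the richest and the poorest class of 0.819, 1.73, 1.38 and 1.66 for Iglc2 and 0.733, 1.25, 0.717 and 0.852 for Iglc3.

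The lambda share accordingly went down as the heavy chain share went up, in 4 of 4 areas. In spots with under 1% heavy chain UMIs lambda made up 23.2% of light chain UMIs in WT, 30.3% in Early, 27.2% in Advanced 1 and 24.1% in Advanced 2. In spots with 5% or more it made up 2.31%, 7.95%, 4.06% and 7.06%. Early had the highest lambda share and WT the lowest in both of these classes, as over all spots. In the classes between them WT was again lowest, but Advanced 2 lay above Early. From 1 to 2% heavy chain UMIs lambda made up 14.9% in WT, 18.3% in Early, 15.5% in Advanced 1 and 20.8% in Advanced 2. From 2 to 5% it made up 6.0%, 8.98%, 7.23% and 10.9%. The mix of classes differed between areas. Spots with under 1% heavy chain UMIs numbered 85 of 356 in WT, 289 of 707 in Early, 201 of 803 in Advanced 1 and 64 of 815 in Advanced 2. Within lambda, Iglc1 went from 15.8%, 14.2%, 19.1% and 14.1% in the poorest class to 39.4%, 43.9%, 26.7% and 49.9% in the richest. These are sums over the spots of 1 area, so no test was made.

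**Figure D4:**
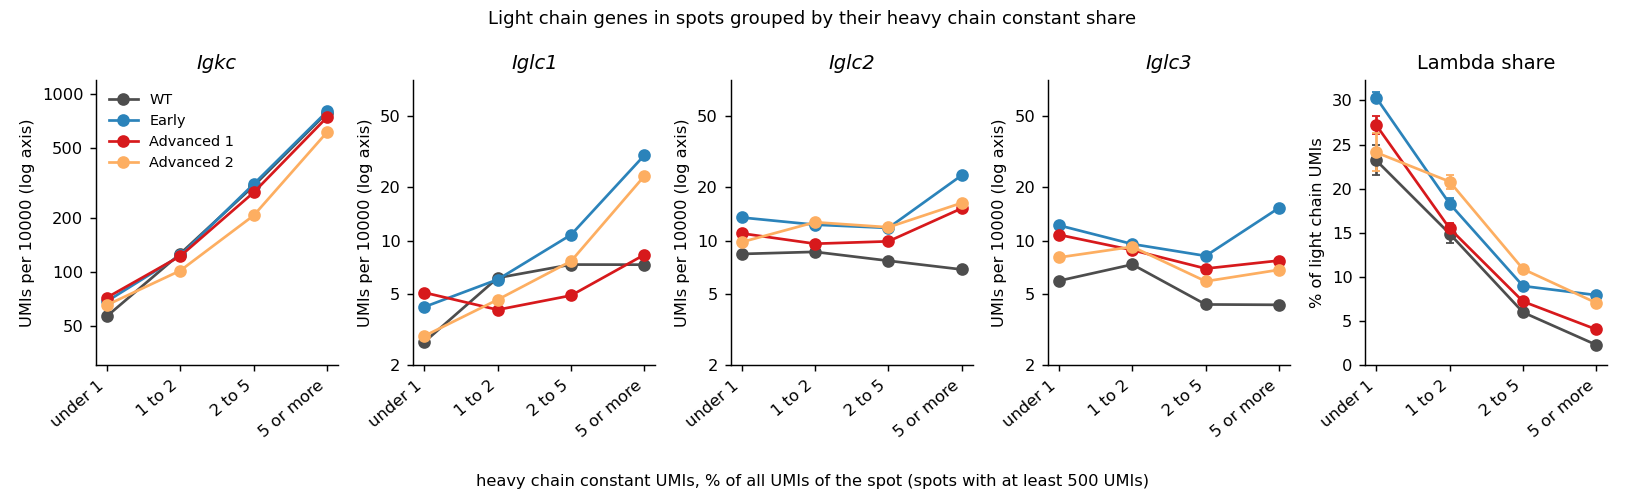
Lambda share of light chain UMIs (in percent, with 95% exact counting intervals) and the level of each light chain gene (UMIs per 10000, log axis) in spots with at least 500 UMIs, grouped by the percent of their UMIs from heavy chain constant genes, with 1 line per capture area. Igkc climbs about 10-fold from the poorest to the richest class, from 72.0 to 740 in Advanced 1, while Iglc3 stays near level and the lambda share drops in all 4 areas.

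The genes whose pattern across spots was most like that of Igkc were other antibody genes. The measure was the Pearson correlation of log2(UMIs per 10000 + 1) across the spots with at least 500 UMIs, averaged over the 4 areas, among 8865 genes. These spots share the library of their area and differ in depth, and r with the log2 depth of a spot was 0.15 for Igkc, 0.30 for Iglc1, 0.18 for Iglc2 and 0.23 for Iglc3, so the values are a description. The heavy chain constant genes Ighg2b (mean r = 0.74), Ighg2c (0.74), Ighm (0.64), Ighg1 (0.50), Ighg3 (0.40) and Igha (0.33) were among the 10 highest. With them stood Jchain (0.67), which joins IgM and IgA into polymers, the antiprotease Slpi (0.51), the chemokine Cxcl12 (0.39) and Iglc1 (0.37).

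For the summed lambda genes, mean r was lower throughout. The 10 highest began with Ighm (0.27), Igkc (0.23), Mzb1 (0.18), a chaperone of antibody-making cells, and Cd79a (0.17) and Cd79b (0.17), the signalling chains of the B cell receptor. Ighd (0.16), Jchain (0.16), Cd74 (0.16), a chaperone of MHC class II, Ighg2c (0.15) and H2-Aa (0.15), a class II chain, followed. Among these, Ighm, Igkc, Ighd, Cd79a and Cd79b belong to the B cell receptor, and Ighm and Igkc also to secreted antibody. Class II genes are also used by dendritic cells and macrophages.

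The 3 lambda genes divided when set against whole lists of marker genes. Against the summed 8 heavy chain constant genes mean r was 0.89 for Igkc, 0.39 for Iglc1, 0.12 for Iglc2 and 0.00 for Iglc3. Against 19 genes of antibody-secreting cells, of which Jchain is the most abundant, it was 0.52, 0.31, 0.16 and 0.12. Against 13 genes of naive and follicular B cells, of which Cd79a is the most abundant, the order was turned round, at -0.28 for Igkc, -0.11 for Iglc1, 0.20 for Iglc2 and 0.26 for Iglc3. With the naive and follicular list each of the 4 areas had the sign of the mean, for all 4 genes. Igkc had an r of 0.37 with Iglc1, 0.10 with Iglc2 and 0.01 with Iglc3, and Iglc2 had one of 0.19 with Iglc3.

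**Figure D5:**
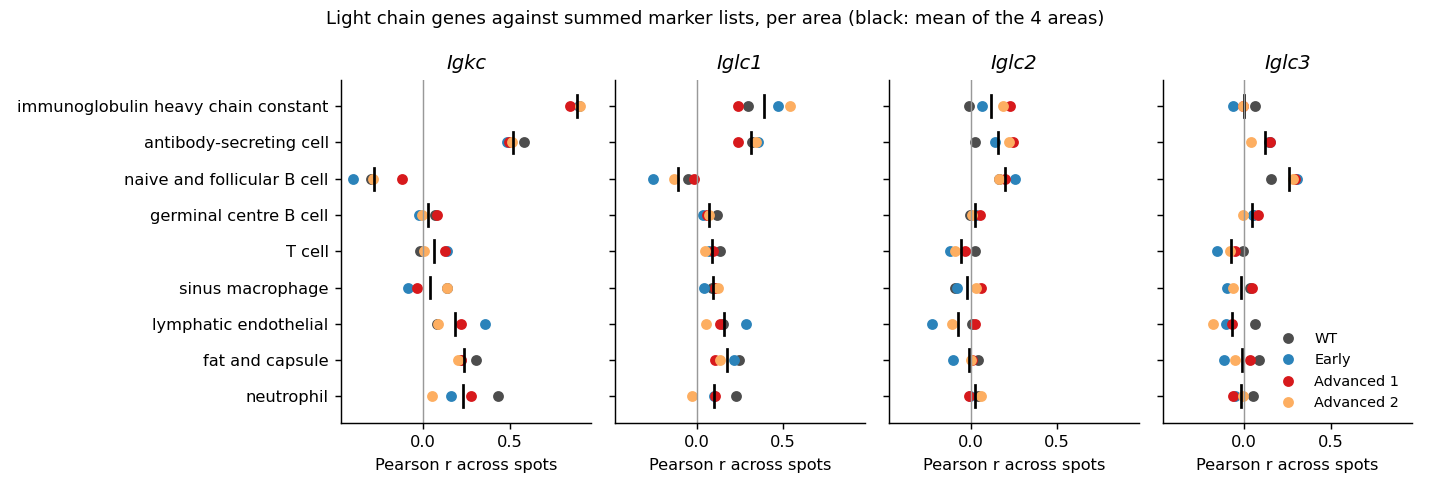
Pearson r across spots with at least 500 UMIs between each light chain constant gene and the summed levels of marker lists, with 1 point per capture area and the mean of the 4 areas in black. From Igkc to Iglc1, Iglc2 and Iglc3 the r with heavy chain constant genes goes from 0.89 to 0.00 and that with naive and follicular B cell genes from -0.28 to 0.26.

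The heavy chain genes and B cell markers were followed through the same comparisons. The 8 heavy chain constant genes summed to 427 UMIs per 10000 in WT, 187 in Early, 300 in Advanced 1 and 467 in Advanced 2, so that there were 0.906, 1.11, 0.969 and 0.694 light chain UMIs per heavy chain UMI. Advanced 2 had the fewest light chain UMIs per heavy chain UMI. Between Advanced and Early 5 of the 8 rose and none fell (median log2 fold change 1.04, against 0.01 over all genes), among them the IgG genes Ighg2b (1.81), Ighg1 (1.77) and Ighg2c (1.16). DESeq2 called 7 genes of any kind in this comparison and 33 against WT. The share of all genes called, in either direction, was 1.16% against Early and 2.08% against WT. Against WT, Ighe and Ighg3 rose and Ighg1 (-2.35) and Ighg2b (-0.41) fell. The calls other than Ighg1 turned on the Advanced area. Ighg2b stood at 181 UMIs per 10000 in WT, 99.6 in Advanced 1 and 195 in Advanced 2, Ighg3 at 7.80, 8.37 and 16.7, and Ighe at 0.0221, 0.0385 and 0.391. Ighg1 stood at 83 UMIs per 10000 in WT against 4.88 in Early, 16.5 in Advanced 1 and 18.6 in Advanced 2.

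The 19 genes of antibody-secreting cells, all detected in every area, summed to 36.1, 23.9, 27.9 and 31.4 UMIs per 10000 in WT, Early, Advanced 1 and Advanced 2, the same order of areas as Igkc. By edgeR, 1 of them rose between Early and Advanced, where 1.16% of all genes were called (Tent5c, which stabilises antibody messages, log2 fold change 1.09) and none fell, while the plasma cell regulator Xbp1 (0.32) and Mzb1 (0.06) did not pass. Against WT, where 2.08% of all genes were called, none rose and 3 fell in Advanced, Jchain (-0.59), Creld2 (-0.88) and Fkbp11 (-1.59). The 13 genes of naive and follicular B cells, also all detected in every area, summed to 29.5, 52.9, 46.7 and 41.7, with WT lowest and Early highest as for Iglc3. Among those that rose in Advanced against WT were the complement receptor gene Cr2 (1.58) and the kinase Blk (1.00), and between Early and Advanced Cr2 fell (-0.70). The median log2 fold change of the list was 0.44 against WT, where none fell, and -0.36 against Early, where none rose. Genes of other cell types were also called between Advanced and WT. Of the red cell genes 5 of 5 rose, and of the neutrophil genes 2 of 6. Of the lymphatic endothelial genes 3 of 8 fell, as did 2 of 10 fat and capsule genes and 2 of 10 T cell genes. Of the sinus macrophage genes 5 of 9 fell and 1 rose. The part of all these genes in the light chain values was not tested.

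At the rim, where 7.62% of all genes were called in either direction, 6 of the 13 naive and follicular B cell genes rose against the interior, among them Ms4a1 (CD20, 0.57), Cd79b (0.55) and Cd79a (0.42), and none fell, with a median log2 fold change of 0.29 against 0.00 over all genes. The summed level of the list was higher at the rim in the 3 TNF-Tg areas (1.30, 1.16 and 1.44 times the interior) and lower in WT (0.922 times). Of the antibody-secreting cell genes tested, none of 18 rose and 3 fell at the rim, the regulator Irf4 (-0.63), Tent5c (-0.58) and Creld2 (-0.42). Of the heavy chain constant genes Ighg2c fell (-0.38) and the rare Ighe rose (1.62). Genes of fat and capsule (6 of 10 rose, with Fabp4 at 0.81) and of red cells (4 of 5 rose, with Hbb-bs at 2.40) were also called at the rim. The summed red cell genes were 2.56 times as high at the rim as in the interior in WT, 10.5 times in Early and 18.2 times in Advanced 2, but 0.982 times in Advanced 1. The most abundant red cell gene, Hbb-bs, stood at 1.91 UMIs per 10000 in WT, 7.46 in Early, 6.12 in Advanced 1 and 5.10 in Advanced 2. The part of these cells in the rim values of the light chain genes was not tested.

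Of the variable genes that lambda chains use, Iglv1 was the only one with at least 100 UMIs. It gave 216 UMIs in WT, 82 in Early, 104 in Advanced 1 and 42 in Advanced 2, or 1.19, 0.158, 0.308 and 0.131 UMIs per 10000. Iglv1 was lower in Advanced than in WT (log2 fold change -2.55 ± 0.24, adjusted p = 1.25e-22, edgeR) but 64 of the 216 WT UMIs came from 1 spot, the one with most Igkc. The level of Iglv1 therefore ran against that of Iglc3, to which it can be joined, and against that of Iglc2, both lowest in WT. For Iglc1, its other partner, WT fell between the 2 Advanced areas. Across spots with at least 500 UMIs the summed lambda variable genes followed Igkc (mean r = 0.31) more than Iglc1 (0.13), Iglc2 (0.03) or Iglc3 (0.04). Counts of kappa variable genes were too low to compare, at 17, 48, 32 and 46 UMIs over all of them in the 4 areas.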

How the data were processed

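UMIs per gene and spot were deposited by the authors as unnormalised counts for spots under tissue, made with Space Ranger 1.1.0 on mm10 (GRCm38), and Seurat 4.0.3 and R 4.1.1 are also named in the submitters' processing notes. Here UMIs were summed per area and per region, and tested with the quasi-likelihood test of edgeR 4.0.16 in R 4.3.3 (filterByExpr, TMM factors, Benjamini-Hochberg adjustment over all genes tested, threshold 0.05), with area as a block for rim against interior. That block pairs the 2 regions of 1 area. DESeq2 1.42.0, other scalings, filters, spot sets and rims, and leaving out each area, were alternatives. The scripts were tested on simulated data. Areas hold pooled nodes of several mice, so p-values do not measure the spread between mice. They measure the spread between areas, which the fits share in part or in full across genes. Intervals are 95% exact intervals for counting error. Shares, thinning and correlations used Python 3.11.15, numpy 2.4.6 and scipy 1.17.1, figures matplotlib 3.10.9, and sequences the GRCm38 reference with Biopython 1.88. Image and position files gave only the grid place of a spot. The light chain genes and the lists (heavy chain constant, lambda variable, kappa variable, antibody-secreting, naive and follicular B, germinal centre B, surrogate light chain and recombination, T cell, sinus macrophage, lymphatic endothelial, fat and capsule, red cell, neutrophil) were chosen with earlier results of these data known. Genes named were the 4 light chain genes, heavy chain constant, lambda variable and antibody-secreting genes with at least 100 UMIs, the most abundant gene of each other list, and the 10 genes most like Igkc and most like summed lambda. Ms4a1, Cd79b, Cr2, Blk, Iglc4, Iglv2, Iglv3, Igll1, Vpreb1, Adgre1, C1qa, Cd5l, Marco and Siglec1 were named after their values were seen, and 1 result of the naive and follicular list is not reported here.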

Additional observations from a re-analysis of the deposited data

Results flagged for a closer look

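Several differences between the rim and the interior pointed one way in WT and the other way in a TNF-Tg group. With 1 area in WT and in Early, none of these differences was tested. For Iglc1 the log2 of rim over interior was 0.64 in WT, -0.76 in Early and on average -0.52 in Advanced, so that WT minus Early was 1.41 and WT minus Advanced was 1.16. The Advanced areas were unlike here, with the rim at 0.947 times the interior in Advanced 1 and 0.513 times in Advanced 2. The difference from WT was thus smaller for Advanced 1. For Iglc3 the log2 of rim over interior was -0.14 in WT, 0.19 in Early and on average 0.26 in Advanced, with differences of -0.33 and -0.40. For Iglc2 it was 0.18 in WT and -0.04 in Early, a difference of 0.219. The interior of WT held 373714 UMIs, and Iglc1 gave 159 of them.

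Iglc4, a lambda constant gene outside the 4 described, gave 6 UMIs in Advanced 2 (0.0188 UMIs per 10000). WT had 0 UMIs of it, which allows a level of up to 0.0166 per 10000 (3 counts of the total, counting error only). Early had 6 and Advanced 1 had 1.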

How the results depend on the processing

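For the 4 genes, settings other than leaving out an area gave 184 values beside the reported ones, of which 156 kept their direction and their side of the threshold, 10 lost a call, 14 gained one and 4 reversed. The 4 were Iglc1 at the rim without TMM factors (log2 fold change 0.057 against Early, 0.042 against WT) and with 2 rings as the rim (0.12 and 0.13). Leaving out an Advanced area turned Iglc1 over all spots (-0.63 to 0.47 against Early, -0.32 to 0.79 against WT), in the interior against Early (-1.05 to 0.56) and at the rim (-0.43 to 0.27 and -0.44 to 0.26). Without TMM factors the median log2 fold change over all genes against WT was 0.13 over all spots. Interior Igkc against Early, not called in either case, went from a log2 fold change of 0.60 to 0.08 with 2 rings as the rim.

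Counts of called genes moved with the tool, the filter, the rim and the areas used. Against Early, DESeq2 called 7 genes over all spots, 1 in the interior and 11 at the rim (152, 36 and 18 with edgeR). Against WT it called 33, 1 and 39 (272, 40 and 126), for rim against interior 419 (890) and for the difference between rim effects 0 (5). With 2 rings as the rim the counts against Early were 0 in the interior and 71 at the rim, against WT 4 and 257, and for rim against interior 517. Without TMM factors 3 and 13 genes were called in the interior against Early and WT. With no filter 88 and 317 were called at the rim, and 0 for the difference between rim effects, which called 3 with scaling without immunoglobulin genes. With spots of at least 500 UMIs the rim counts were 30 and 227, and that for rim against interior 536. The causes of these shifts were not tested.

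WT, Early and Advanced could not be paired with each other, because each group held different mice. For rim against interior, with no replicate block for the area, 159 genes were called, and none of the 4 light chain genes. Leaving out 1 area gave 272 to 1119 calls for rim against interior (272 without Advanced 2, 408 without Early, 535 without Advanced 1, 1119 without WT). The group fits without 1 Advanced area have no residual degrees of freedom and give no count of calls.

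The kappa to lambda ratio kept its order of groups in each setting run, and its mean stayed lower at the rim, though in 2 of 4 areas with Iglc1 alone as lambda. Advanced over Early was 2.23 with Iglc3 as lambda, and WT over Advanced was 1.58 with Iglc1 and 1.63 without the 10 richest spots. The mean share of light chain UMIs in the top 10% of spots, over the 4 areas, was 72.7%. It was 55.9% for the top 5%, 88.3% for the top 20% and 35.4% in spots thinned to 500 UMIs. The mean share of thinned spots with at least 1% light chain UMIs was 79.0%, 92.8% at 0.5%, 44.5% at 2% and 70.1% when thinned to 250 UMIs. Depth limits the WT interior most, where the median spot held 140.5 UMIs.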

Other observations

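The other marker lists moved as follows. T cell genes summed to 9.57 UMIs per 10000 in WT, 6.59 in Early, 7.18 in Advanced 1 and 8.08 in Advanced 2, with Cd4 the most abundant. At the rim 4 of 10 T cell genes fell and none rose (7.62% of all genes called in either direction). Sinus macrophage genes summed to 70.7, 101.0, 69.4 and 68.7, led by the lysozyme gene Lyz2, which rose at the rim (log2 fold change 0.85) and was lower in Advanced than in Early (-0.83). Lyz2 held 58.3% of the UMIs of the list, and other members went other ways. Against WT, where 2.08% of all genes were called, Lyz2 rose in Advanced (0.63) while Adgre1 (-1.82), Cd5l (-1.31), C1qa (-1.07), Siglec1 (-1.0) and Marco (-0.80) fell. Against Early Cd5l rose (0.84), and at the rim Siglec1 rose with Lyz2 (0.60). Lymphatic endothelial genes summed to 20.6, 9.35, 14.3 and 16.6. Their most abundant gene, the chemokine Ccl21a, fell at the rim (-0.52) and rose between Early and Advanced (1.14). Neutrophil genes summed to 5.52, 3.72, 10.4 and 5.48, and 5 of 6 rose between Early and Advanced, with S100a9 at 0.86 (1.16% of all genes called). The 6 germinal centre B cell genes, led by Bcl6, summed to 0.918, 1.15, 1.07 and 0.916, and none was called between Advanced and Early, between Advanced and WT, or between rim and interior over all spots. These calls are from edgeR.

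Genes of the surrogate light chain, which stands in for a light chain in developing B cells, were listed with genes of recombination. The list was detected at low levels. Its most abundant gene, Vpreb3, is also a marker by which the paper names a naive B cell cluster, so it is not read as a level of the surrogate light chain. Vpreb3 stood at 1.26 UMIs per 10000 in WT, 0.911 in Early, 0.743 in Advanced 1 and 0.616 in Advanced 2. It fell in Advanced against WT (log2 fold change -1.0, adjusted p = 0.000287, edgeR) and rose at the rim (0.56, adjusted p = 0.0177). The rest of its list did not follow it. Of 5 genes tested, 4 had a positive log2 fold change against WT (median 0.59), without passing, and Vpreb3 was the exception. In that comparison 2.08% of all genes were called. Against Early, where 1.16% of all genes were called, Igll1 (3.68) and Vpreb1 (2.28) rose and none fell. At the rim, where 7.62% of all genes were called, Igll1 fell (-1.30) and the median of the list was -0.45. Igll1 stood at 0.0829, 0.00965, 0.0651 and 0.206 in the same order, with 108 UMIs in all.

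The 160 kappa variable genes listed gave 143 UMIs over the 4 areas, and at most 1 of them passed the filter on low counts in any comparison. Iglv3 stood at 0.122, 0.0598, 0.0385 and 0.0813 UMIs per 10000 in WT, Early, Advanced 1 and Advanced 2, and Iglv2 gave 1, 1, 0 and 0 UMIs.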
